A study of Apis mellifera with 24 samples.

Results

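Putative piRNA reads in the sense direction of TEs and genes were compared between the spermatheca of honey bee queens (Apis mellifera) and drone semen. Queens keep the sperm of their mates in the spermatheca, and the spermathecae were dissected from adult, naturally mated laying queens, so that they held queen tissue and stored sperm together. The label of 1 spermatheca library names 4 queens as its source. The semen came from adult drones, pooled within a colony. All bees were commercial stock mainly of A. m. ligustica heritage. The labels list 3 spermatheca libraries and 2 semen libraries, and the deposited tables give each tissue as a single column of the authors' pooled counts. A feature was compared when it had at least 20 sense counts in either tissue, which held for 554 of 34760 TEs and 1884 of 15313 gene models, or 2438 of 50073 features in all.

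piRNAs are small RNAs bound by PIWI proteins, and in animals they silence TEs in the germline. Many arise from long precursor transcripts of genomic regions packed with TE remnants, called piRNA clusters. An RNA that is antisense to a TE can pair with its transcript, whereas a sense read has the sequence of the transcript itself and can be a processed piece of it, a piece of a cluster transcript that runs in the same direction, or a degradation product of piRNA length. Reads of this length do not measure the level of the mRNA of a gene.

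Spermatheca had far more sense counts than semen on TEs, with 5193938 counts in spermatheca against 90962 in semen. On genes the gap was smaller, with 863269 counts in spermatheca against 117292 in semen. The features compared held 99.8% of the TE counts in spermatheca and 99.0% in semen, and for genes they held 95.1% in spermatheca and 91.1% of the semen counts. The sums hold only reads assigned to a feature, not whole libraries. A count of 0 among the semen TE counts allows a share of up to 0.00330%, and among the semen gene counts of up to 0.00256%. The corresponding limits in spermatheca were 5.78e-05% and 0.000348%. With 1 column per tissue there was no spread between replicates, so that no difference could be set against replicate error and no test was run. The 95% intervals are exact (Clopper-Pearson) intervals for the counting of reads only. The libraries were amplified by PCR and carried no molecular identifiers, so that copies of the same molecule were counted as separate reads. The intervals can therefore be too narrow even for counting error. By the flow cells in the labels, both semen libraries were sequenced together and apart from all spermatheca libraries, so that tissue and sequencing run cannot be told apart. By the study's methods the tissues were also collected in different years. Semen was expelled straight into Trizol, whereas spermathecae were dissected from frozen queens. Collection and handling therefore cannot be told apart from tissue either. Nor can fewer cells of a type be told apart from less RNA per cell in whole tissue.

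The balance between TEs and genes differed between the tissues. Spermatheca had 6.02 TE sense counts for each gene sense count, against 0.776 in semen. Each table was led in each tissue by a different feature, and without the leading TEs and genes of both tissues the balance was 6.94 in spermatheca against 0.148 in semen. This ratio is taken within a tissue and does not depend on how the tissues are scaled to each other.

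Sense counts were concentrated on a handful of loci in both tissues. In spermatheca the leading TE was ms35558, a LARD (a large retrotransposon derivative, a class I element without coding capacity), which held 14.9% of the TE sense counts. In semen 88.7% (95% interval 88.5 to 88.9) fell on the single element ms43364, a class II element with terminal inverted repeats (TIR). Counted from the top, 4 TEs together held over 50% of the spermatheca counts, and ms43364 alone did so in semen. For genes the leading model held 25.7% in spermatheca (GB50405) and 46.4% in semen (GB47541). Without the 2 leading genes, 7 genes were needed to reach 50% of the counts in spermatheca and 56 in semen.

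The shares of the TE classes moved with these leading elements. Class I elements, which copy themselves through RNA, held 95.1% of TE sense counts in spermatheca and 9.00% in semen, and class II elements, the DNA transposons, held 4.58% in spermatheca and 90.0% in semen. Nearly all class II counts of semen lay on ms43364. Once ms35558 and ms43364 were left out of both tissues, class I held 94.7% in spermatheca and 77.5% (95% interval 76.6 to 78.3) in semen, and class II held 4.95% in spermatheca and 13.0% (95% interval 12.3 to 13.7) in semen. Elements with no class in their name held 0.347% in spermatheca and 9.50% in semen without these 2 TEs.

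**Figure D1:**
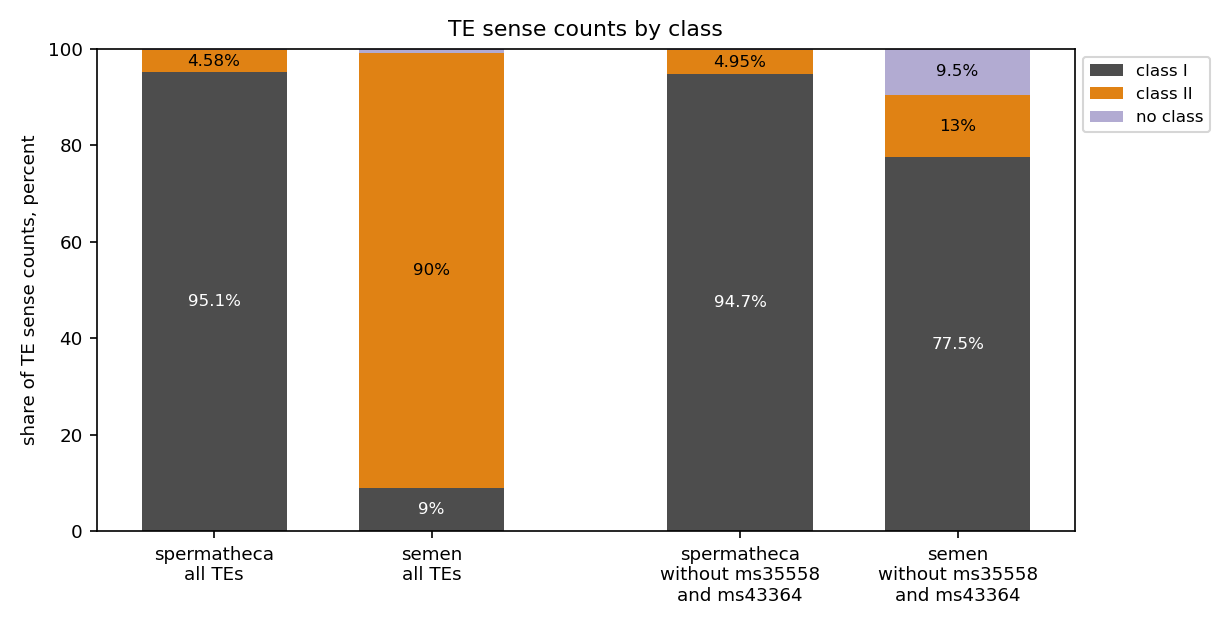
Share of TE sense counts (percent) on class I, class II and unclassified TEs in spermatheca and semen, for all TEs (left pair) and without ms35558 and ms43364 (right pair). With all TEs semen is mainly class II (90.0%); without the 2 leading TEs both tissues are mainly class I (94.7% in spermatheca and 77.5% in semen).

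To compare single features, the counts of each table were scaled by the TMM method of edgeR, which assumes that most features do not differ, and a feature was called when its scaled count differed over 5-fold, with a tissue under 3 counts set to 3 when it was the lower one. For a feature with 1 or 2 counts in a tissue, the fold and interval printed use the counts themselves. Among TEs, 42 of 554 (7.58%) were called higher in spermatheca and 64 (11.6%) were called higher in semen. These TE calls depend on the scale. In the TE table the TMM factor set 97.0 spermatheca counts equal to 1 semen count, whereas a single TMM factor over the TE and gene tables together set 6.93 counts equal to 1. On that common scale 246 TEs (44.4%) were called higher in spermatheca and 7 (1.26%) higher in semen. Raw counts of both tissues are therefore given for each TE below, and 548 of the 554 TEs had more raw counts in spermatheca and 6 had more in semen. Among genes, 114 of 1884 (6.05%) were called higher in spermatheca and 154 (8.17%) higher in semen at 5.85 spermatheca counts to 1 semen count, and the common scale gave 95 (5.04%) and 171 (9.08%). The plot of all compared features shows both scales beside the counts.

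**Figure D2:**
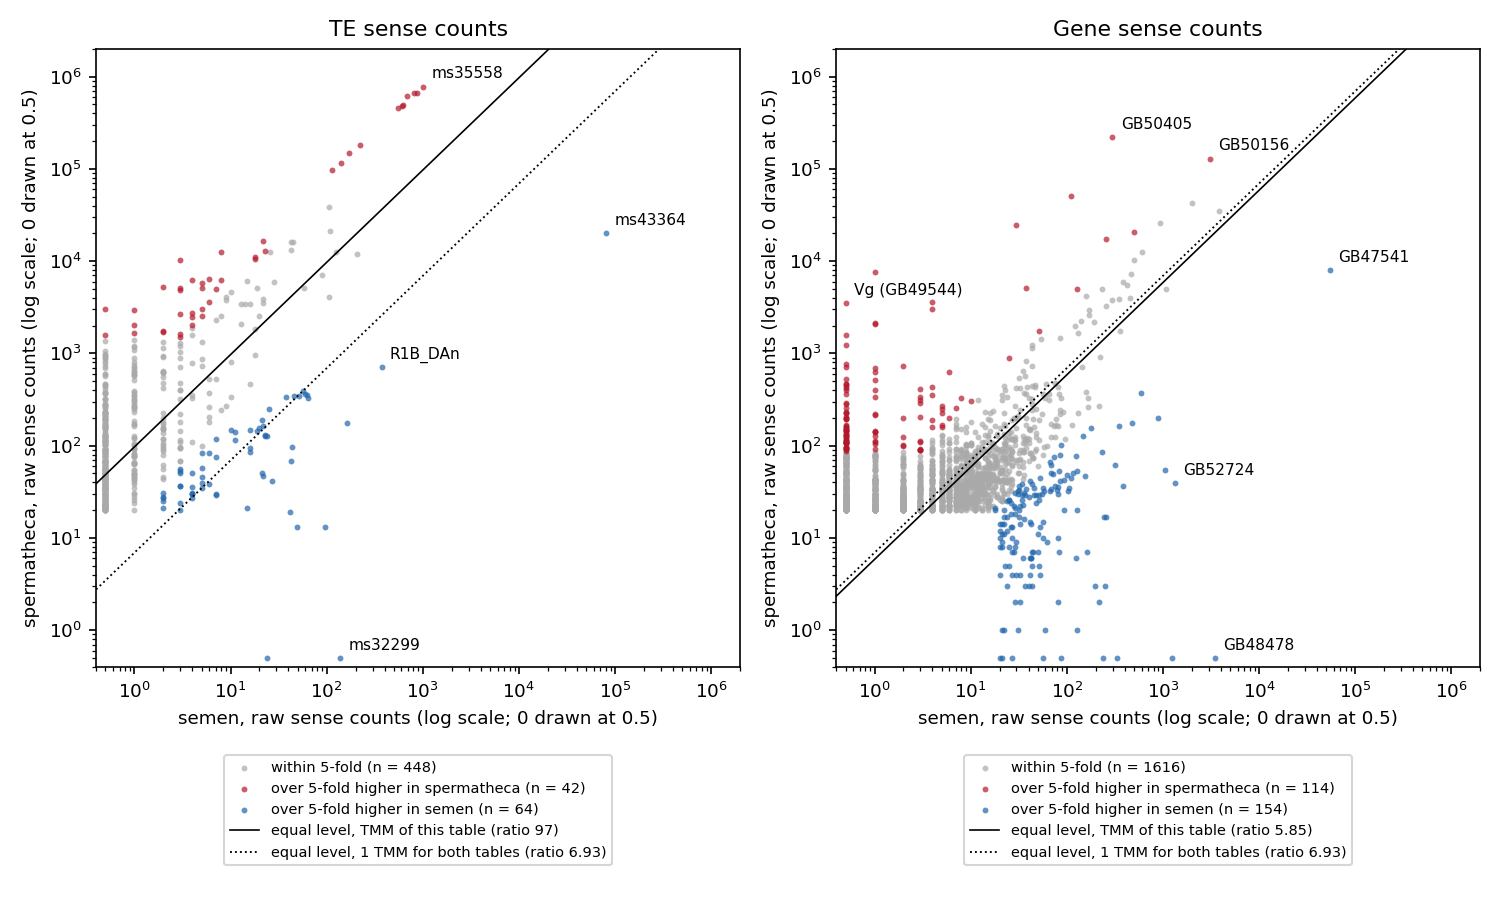
Raw sense counts of each compared TE (left) and gene (right) in spermatheca (vertical, log axis) and semen (horizontal, log axis), with 0 drawn at 0.5. The lines mark equal scaled levels; the solid line (97.0 for TEs, 5.85 for genes) and the dotted line (6.93) lie far apart for TEs and close together for genes.

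Most compared features reached 20 counts in 1 tissue only. At least 20 sense counts in both tissues were found for 50 TEs and 305 genes, in spermatheca only for 499 TEs and 1499 genes, and in semen only for 5 TEs and 80 genes. No semen count at all was found for 275 TEs and 301 genes. Because 3 semen counts correspond to many spermatheca counts, a TE without semen counts needed more than 1455 spermatheca counts to be called and a gene more than 87.8, which 273 of these TEs and 247 of these genes did not have. For them a difference of this size was not detectable at this depth and on these scales (97.0 for TEs and 5.85 for genes). The limit for TEs is lower on the common scale of 6.93. Over the features with at least 20 counts in both tissues, the counts of the tissues had a rank correlation of 0.69 over the 50 TEs and 0.41 over the 305 genes, across features that share libraries and are not independent.

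The LARDs of chromosome 16 (Amel 4.5) dominated the spermatheca. In a piRNA cluster that the study called on these same samples, which is therefore no independent evidence, 14 LARDs lie in an almost unbroken run on the plus strand from 262599 to 289329. They summed to 4524408 counts in spermatheca and 5619 in semen. The largest were ms35558 (277669 to 280751) with 776012 counts in spermatheca and 1005 in semen, ms35559 (280756 to 283373) with 662487 and 820, and ms35556 (273396 to 276714) with 662127 and 865. Chromosome 16 as a whole carried 87.5% of TE sense counts in spermatheca and 6.41% in semen.

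The count ratio varied little among the LARDs of this run that had many semen counts. Pooled over the 14 elements it was 805 spermatheca counts to 1 semen count (95% interval 784 to 827), and among the 9 LARDs with at least 100 semen counts it ranged from 765 at ms35556 to 891 at ms35554. All 9 were called higher in spermatheca, with ms35558 at a fold of 7.96 (95% interval 7.48 to 8.47) on the TE scale and 111 on the common scale. Only 1 antisense count was found over the whole run in spermatheca and 0 in semen. The 3 LARDs of the same cluster beyond the next gap (312255 to 366861) differed from the run. They had 3179 counts in spermatheca and 42 in semen, a ratio of 75.7 (95% interval 55.9 to 105), and none was called on the TE scale. The 4 plus-strand TIR elements beside them (333536 to 370142) had 12583 counts in spermatheca and 149 in semen, a ratio of 84.4 (95% interval 71.9 to 99.9). This split of the cluster was chosen after its values were seen. The 5 minus-strand TIR elements at the far end of the cluster (378982 to 391354) had 1536 sense counts in spermatheca and 2 in semen, against 19404 antisense counts in spermatheca and 97 in semen, so that their reads too came mainly from the plus strand.

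**Figure D3:**
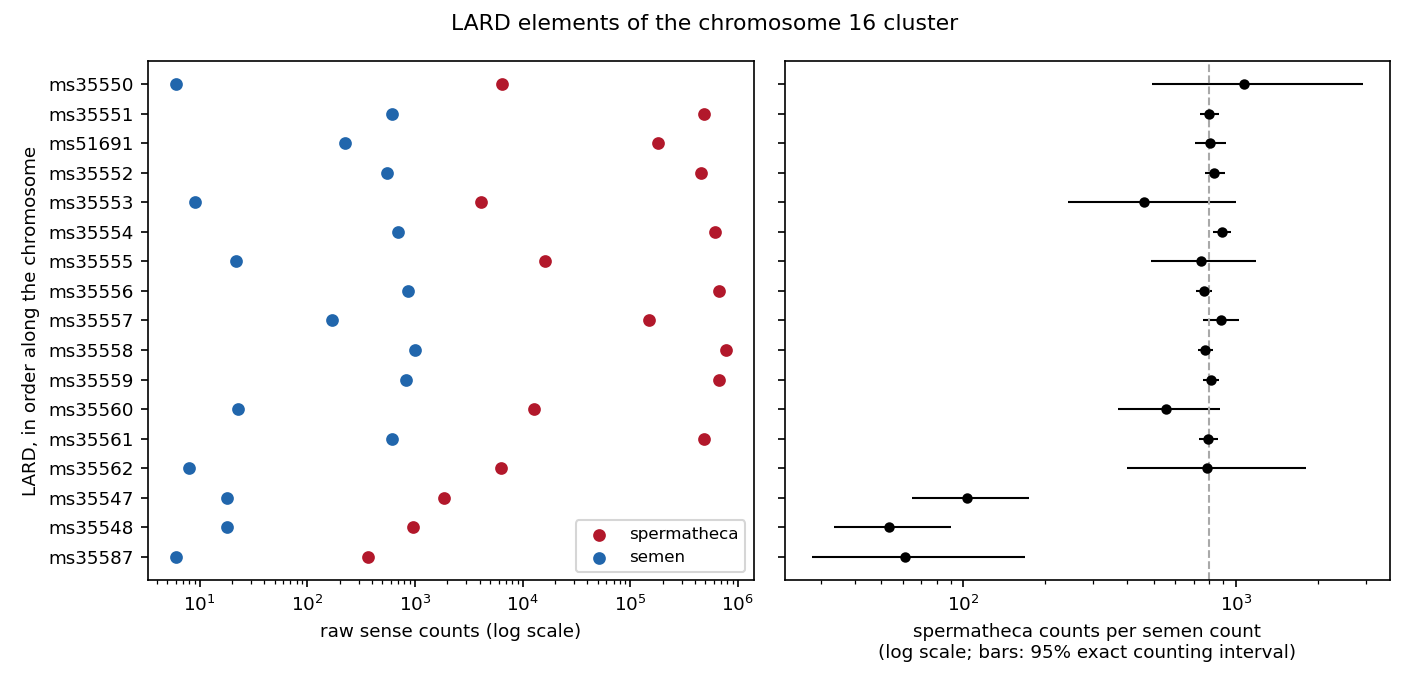
Raw sense counts in spermatheca and semen (left, log axis) and their ratio with its 95% exact counting interval (right, log axis) for the 17 LARDs of the chromosome 16 cluster, in order along the chromosome. The dashed line marks the pooled ratio of all 17 (800); the upper 14 lie between 458 and 1071, and the 3 at the bottom between 53.3 and 103.

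A second locus that led in spermatheca had a ratio of the same order. On the unplaced scaffold GroupUn23, 4 TRIMs (terminal-repeat retrotransposons in miniature) had 233240 counts in spermatheca and 304 in semen, a ratio of 767 (95% interval 686 to 861). The largest, ms39718, had 116046 counts in spermatheca and 140 in semen. Over all TEs compared, 7.58% were called higher in spermatheca and 11.6% higher in semen, and on the common scale 44.4% and 1.26%. Of the 177 LARDs compared, 24 (13.6%) were called higher in spermatheca and 19 (10.7%) higher in semen, and on the common scale 81 (45.8%) and 1 (0.565%). Of the 226 TIR elements, 12 (5.31%) were called higher in spermatheca and 10 (4.42%) higher in semen, and on the common scale 117 (51.8%) and 1 (0.442%). The TIR elements with the largest folds toward spermatheca were ms39253, with 10248 counts in spermatheca and 3 in semen (35.2-fold, 95% interval 12.0 to 171), ms38819, with 5129 and 3 (17.6-fold, 95% interval 6.03 to 85.5), and ms42023, with 12699 and 8 (16.4-fold, 95% interval 8.30 to 37.9).

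The named families of DNA transposons and LTR retrotransposons had few semen counts, whereas 372 semen counts fell on family I and 164 on the 5S family, described with the TEs of semen. Tc1-Mariner elements, cut-and-paste DNA transposons, gave 55 compared entries, of which 23 had no semen count. On the TE scale 4 (7.27%) were called higher in spermatheca and 0 higher in semen, beside 7.58% and 11.6% over all TEs. On the common scale these were 26 (47.3%) and 0, beside 44.4% and 1.26% over all TEs, so that the share toward spermatheca was near that of all TEs on both scales. An entry pools all places listed under it. The SMAR7 entry with 44 places had 10612 counts in spermatheca and 18 in semen (6.08-fold, 95% interval 3.84 to 10.3), FAMAR1 on GroupUn9 had 5864 and 5 (12.1-fold, 95% interval 5.18 to 37.2), and DESMAR1 with 3 places had 2651 and 3 (9.11-fold, 95% interval 3.11 to 44.2). Among LTR retrotransposons, the 8 Gypsy entries had 31 to 1650 counts in spermatheca and 0 to 16 in semen, the 8 Bel-Pao entries had 23 to 256 and 0 to 1, and the 5 Copia entries had 20 to 384 and 0 to 1. The 7 PiggyBac entries had 21 to 1132 counts in spermatheca and 0 to 2 in semen. The 6 entries of R2, a LINE-type retrotransposon that inserts into ribosomal RNA genes, had 27 to 645 counts in spermatheca and 0 to 10 in semen. On the TE scale none of the 6 was called in either direction. On the common scale 3 (50%) were called higher in spermatheca, near the 44.4% of all TEs.

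The TE that led in semen, ms43364, lay at another place. After it, LARDs of the chromosome 16 run had the most semen counts, led by ms35558 (1005) and ms35556 (865). The other TEs described here had high semen counts relative to their spermatheca counts. The element ms43364, in pieces on the minus strand of the unplaced scaffold GroupUn98 between 15657 and 16304, had 20080 counts in spermatheca and 80687 in semen. It was one of only 6 TEs with more raw counts in semen, and its scaled level was 390-fold (95% interval 384 to 396) lower in spermatheca on the TE scale and 27.8-fold lower on the common scale. Between its pieces lies the plus-strand TE LIN9_SM (15798 to 16001), with 6113 antisense counts in spermatheca and 6582 in semen. The plus-strand gene model GB43330 (15844 to 16065) covers most of LIN9_SM and part of ms43364 and had 6988 antisense counts in spermatheca and 6750 in semen, so that some of these counts can be the same reads. On the same scaffold R1B_DAn, a 63-base match to R1, a retrotransposon of ribosomal RNA genes, had 708 counts in spermatheca and 372 in semen. The SINE 5S_DM had 178 counts in spermatheca and 164 in semen over its 43 places. On the TE scale R1B_DAn was 51.0-fold and 5S_DM 89.4-fold lower in spermatheca, and on the common scale 3.64-fold and 6.38-fold.

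The other TEs with more raw counts in semen were small. ms32299, a 60-base LARD on chromosome 14, had 0 counts in spermatheca and 139 in semen, and lies on the strand of the gene GB48478, described with the genes. The Penelope-like element Coprina_Cc1 had 0 counts in spermatheca and 24 in semen. The potential host gene entries ms34465 and ms6247 had 13 and 13 counts in spermatheca, against 95 and 49 in semen, and the TRIM ms12841 had 19 in spermatheca and 42 in semen. Potential host genes are repeats that the TE annotation marked as possibly belonging to a multicopy gene. Of 44 compared, 27 (61.4%) were called higher in semen and 0 higher in spermatheca on the TE scale, beside 11.6% and 7.58% over all TEs. On the common scale 2 (4.55%) were called higher in semen and 6 (13.6%) higher in spermatheca, beside 1.26% and 44.4% over all TEs. The entries had 13 to 2567 counts in spermatheca and 0 to 95 in semen, and only 2 of the 44 had more raw counts in semen. None of the 44 lay in a piRNA cluster.

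All 42 TEs called higher in spermatheca, and 5 of the 64 called higher in semen, touched a piRNA cluster of the study's list. Because that list was made from these samples, the counts are not independent evidence of a direction. On the common scale 215 of the 246 TEs called higher in spermatheca and 1 of the 7 called higher in semen touched a cluster. Clusters were touched by 345 of the 554 TEs compared. All 1442 annotated TEs that touched a cluster, compared or not, held 98.8% of the TE sense counts in spermatheca and 8.13% in semen. For genes, 30 of the 114 called higher in spermatheca and 4 of the 154 called higher in semen touched a cluster, as did 76 of the 1884 compared. Genes that touched a cluster held 48.5% of gene sense counts in spermatheca and 6.49% in semen. When at least 50% of the gene had to lie in a cluster, they held 17.9% in spermatheca and 5.10% in semen.

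The gene GB50405 (LOC100577492) on chromosome 4 led the spermatheca, with 221877 sense counts in spermatheca and 298 in semen (127-fold, 95% interval 114 to 143). Its antisense counts were 983 in spermatheca and 3 in semen. GB54361 (LOC726424) on chromosome 16 had 50535 counts in spermatheca and 112 in semen (77.1-fold, 95% interval 64.0 to 93.6). GB50868 on an unplaced scaffold, which the annotation pairs with the same RefSeq gene, had 3633 and 4 (155-fold, 95% interval 60.5 to 570), and reads of such copies can be shared between the models. GB45793 on GroupUn62 had 24844 sense counts in spermatheca and 30 in semen (141-fold, 95% interval 99.1 to 210), and here the antisense counts were larger, at 61609 in spermatheca and 57 in semen. In this model the TE ms42023 lies on the opposite strand. All 4 models touched clusters. The largest fold toward spermatheca was that of GB49972 (LOC100578044) on chromosome 15, which also touched a cluster and had 7703 counts in spermatheca and 1 in semen (1316-fold from the counts, 95% interval 236 to 51980, and log2 8.78 with semen set to 3).

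The second gene of the spermatheca, GB50156 (LOC726458) on chromosome 15, had 129024 counts in spermatheca and 3111 in semen (7.08-fold, 95% interval 6.84 to 7.34). Its reads came from a very small part of the model. The gene spans 16609 bases, and ms34558, a 92-base TE on the opposite strand within it (6862419 to 6862510), had 129003 antisense counts in spermatheca and 3110 in semen, which run in the direction of the gene and make up over 99.9% of the gene's sense counts in both tissues. GB50003 (LOC408517), a gene of 5953 bases on the same chromosome, had 20490 counts in spermatheca and 501 in semen (6.99-fold, 95% interval 6.39 to 7.65), and a 90-base TE on its opposite strand, ms34872, held 20479 and 497 antisense counts. In GB49566 (LOC411048), a gene of 75538 bases on chromosome 4, 17484 counts in spermatheca and 256 in semen were nearly all covered by a pair of TEs, ms9675 with 8738 antisense counts in spermatheca and 128 in semen and ms9676 with 8720 and 115. The whole of GB51201 (LOC552266) is also annotated as the opposite-strand TE ms13635, and both hold 42580 counts in spermatheca and 2030 in semen. For these genes the same reads entered the gene sense and the TE antisense table. This search was made after the values were seen. GB46019 (LOC724517) on chromosome 6 was the gene with the most counts in semen after GB47541, with 34714 counts in spermatheca and 3821 in semen, within 5-fold (log2 fold 0.63).

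Double annotation was common. An opposite-strand gene overlapped 459 of the 1884 genes, a same-strand TE 783 and an opposite-strand TE 747. Counts of such genes cannot be divided between the overlapping features.

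In semen, 46.4% of the gene sense counts fell on GB47541, a 153-base model on the plus strand of the unplaced scaffold GroupUn63 (1257 to 1409), with 7960 counts in spermatheca and 54410 in semen. Its scaled level was 40.0-fold (95% interval 39.1 to 41.0) lower in spermatheca, and it had 5 antisense counts in spermatheca and 0 in semen. The other 5 models of the scaffold together had few, with 4 to 34 sense counts in spermatheca and 0 to 9 in semen. All unplaced scaffolds together held 7.50% of gene sense counts in spermatheca and 49.4% in semen.

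A few genes had many counts in semen and few or none in spermatheca. GB48478 (LOC100578307) on chromosome 14 had 0 counts in spermatheca and 3465 in semen, and was 6761-fold lower in spermatheca (95% lower limit 5496). GB51444 (LOC724619) on GroupUn42 had 0 in spermatheca and 1239 in semen, and was 2418-fold lower (95% lower limit 1963). These folds set spermatheca to 3 counts, whereas the limits come from the counts themselves. GB52724 (LOC410539) on chromosome 14 had 39 counts in spermatheca and 1331 in semen, 200-fold lower in spermatheca (95% interval 145 to 282). GB42054 (LOC411083) on chromosome 5 had 55 counts in spermatheca and 1064 in semen, 113-fold lower in spermatheca (95% interval 86.3 to 151). Part of its counts can be shared with the opposite-strand gene GB42039, which had 63 antisense counts in spermatheca and 714 in semen. The 154 genes called higher in semen had a median of 17 counts in spermatheca and 43 in semen, and 141 of them had more raw counts in semen than in spermatheca.

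A gene symbol other than a locus number was available for 83 of the 1884 genes (75 different symbols). Of these 83 genes, 10 were called higher in spermatheca and 12 higher in semen, beside 114 (6.05%) and 154 (8.17%) of all 1884. The largest difference toward spermatheca among them was in Vg, vitellogenin, the yolk protein precursor that the fat body of queens secretes in large amounts. Vg had 3518 counts in spermatheca and 0 in semen, with 0 antisense counts in both tissues. With semen set to 3, Vg was 200-fold higher in spermatheca, and the lower limit of its exact counting interval was 163-fold. Tsf1, the iron carrier transferrin, had 336 counts in spermatheca and 3 in semen. Cyp4g11, a cytochrome P450, had 195 in spermatheca and 0 in semen, and Tret1, a trehalose transporter, had 123 and 0. Of the fat body markers, Vg was the only one of 5 genes with 20 counts, and the hexamerins had 0 to 11 counts in spermatheca and 0 to 3 in semen.

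Markers of other tissues were near 0. The 8 muscle gene models summed to 13 counts in spermatheca and 1 in semen, the 34 of epithelium and gland (cuticle and royal jelly proteins) to 57 and 6, and the haemocyte gene PPO had 4 and 0. No symbol matched a sperm marker, so the sperm content of either tissue was not checked in this way, and the part that contamination by other cells had in any result was not tested.

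Of 5 translation factor models, 2 were compared, and the other 3 had 0 to 13 counts in spermatheca and 2 each in semen. EF1a-F2 (GB41358), the elongation factor that brings aminoacyl-tRNA to the ribosome, had 25805 counts in spermatheca and 929 in semen (4.74-fold), and Eif4g (GB45348), the scaffold of the translation initiation complex, had 12612 and 612 (3.52-fold). Neither reached the 5-fold limit. Of 5 ribosomal protein genes on the list, 4 were compared. Among them 1 was called higher in semen and 0 higher in spermatheca, beside 8.17% and 6.05% of all genes compared. This was Rps14, with 30 counts in spermatheca and 81 in semen (log2 fold -3.98), whereas RpLP1 had 118 and 40 (log2 fold -0.99). The median log2 fold of the 4 was -0.85, beside 0.26 over all 1884 genes.

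The heat shock proteins did not share a direction. Hsc70-5 (GB42297), the mitochondrial member of the Hsp70 chaperones, had 5004 counts in spermatheca and 129 in semen, and was called higher in spermatheca (6.63-fold, 95% interval 5.56 to 7.95). The cytosolic Hsc70-4 (GB40866) had 368 in spermatheca and 599 in semen, and was called higher in semen (9.53-fold lower in spermatheca, 95% interval 8.35 to 10.9). Hsp90 had 429 and 82 counts (log2 fold -0.16) and Hsc70-3 38 and 21 (log2 fold -1.69), both within 5-fold. The median log2 fold of these 4 genes was -0.93. Over all genes compared, 6.05% were called higher in spermatheca and 8.17% higher in semen. The actin-related gene Arp1 had 268 counts in spermatheca and 214 in semen (log2 fold -2.22), which passed the 5-fold limit on the common scale (5.53-fold lower in spermatheca) but not on the gene scale (4.67-fold).

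Of 13 antioxidant gene models, 3 were compared and they did not share a direction. Of these, 1 was called higher in spermatheca and 1 higher in semen, beside 6.05% and 8.17% of all genes compared. GstD1, a glutathione S-transferase, had 188 counts in spermatheca and 4 in semen and was called higher in spermatheca (8.03-fold, 95% interval 3.08 to 29.8). Tpx-4, a thioredoxin peroxidase, had 35 and 46 and was called higher in semen (7.69-fold lower in spermatheca, 95% interval 4.85 to 12.3). Sod1, the cytosolic superoxide dismutase, had 22 and 1 and was not called. Of 8 genes of oxidative phosphorylation, ATP5G2 had 126 counts in spermatheca and 5 in semen and CytC, cytochrome c, had 31 and 1, neither called.

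Genes of the piRNA pathway and of sex determination had few sense counts. The PIWI protein gene aub had 59 counts in spermatheca and 0 in semen, the germline helicase gene vas 51 and 0, and tra2, a splicing cofactor of sex determination, 35 and 0. None passed the limit, which a gene without semen counts reaches only above 87.8 spermatheca counts.

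Lists for ecdysone signalling, embryonic patterning and venom were added after values had been seen. Their few calls stand beside 6.05% called higher in spermatheca and 8.17% higher in semen over all 1884 genes compared. Of 8 compared models of ecdysone signalling, 1 was called higher in spermatheca and 0 higher in semen. This was an E75 model, a nuclear receptor gene induced by ecdysone (GB47223), with 144 counts in spermatheca and 1 in semen (24.6-fold from the counts, 95% interval 4.35 to 978, and log2 3.04 with semen set to 3), while the neighbouring E75 model GB47224 had 90 and 33 (log2 fold -1.10). The ecdysone receptor gene Ecr had 365 and 57 counts on one model (GB48058, log2 fold 0.13) and 165 and 81 on the other (GB48059, log2 fold -1.52). Of 5 compared patterning models, cad, a homeobox gene of the posterior embryo, was called higher in spermatheca. It had 194 counts in spermatheca and 0 in semen (11.0-fold with semen set to 3, 95% lower limit 8.90), beside 135 antisense counts in spermatheca and 0 in semen. Among venom genes, Melt, which encodes melittin, had 167 counts in spermatheca and 0 in semen (9.51-fold with semen set to 3, 95% lower limit 7.65). Acph-1, the acid phosphatase, had 15 and 57 (log2 fold -4.48).

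**Figure D4:**
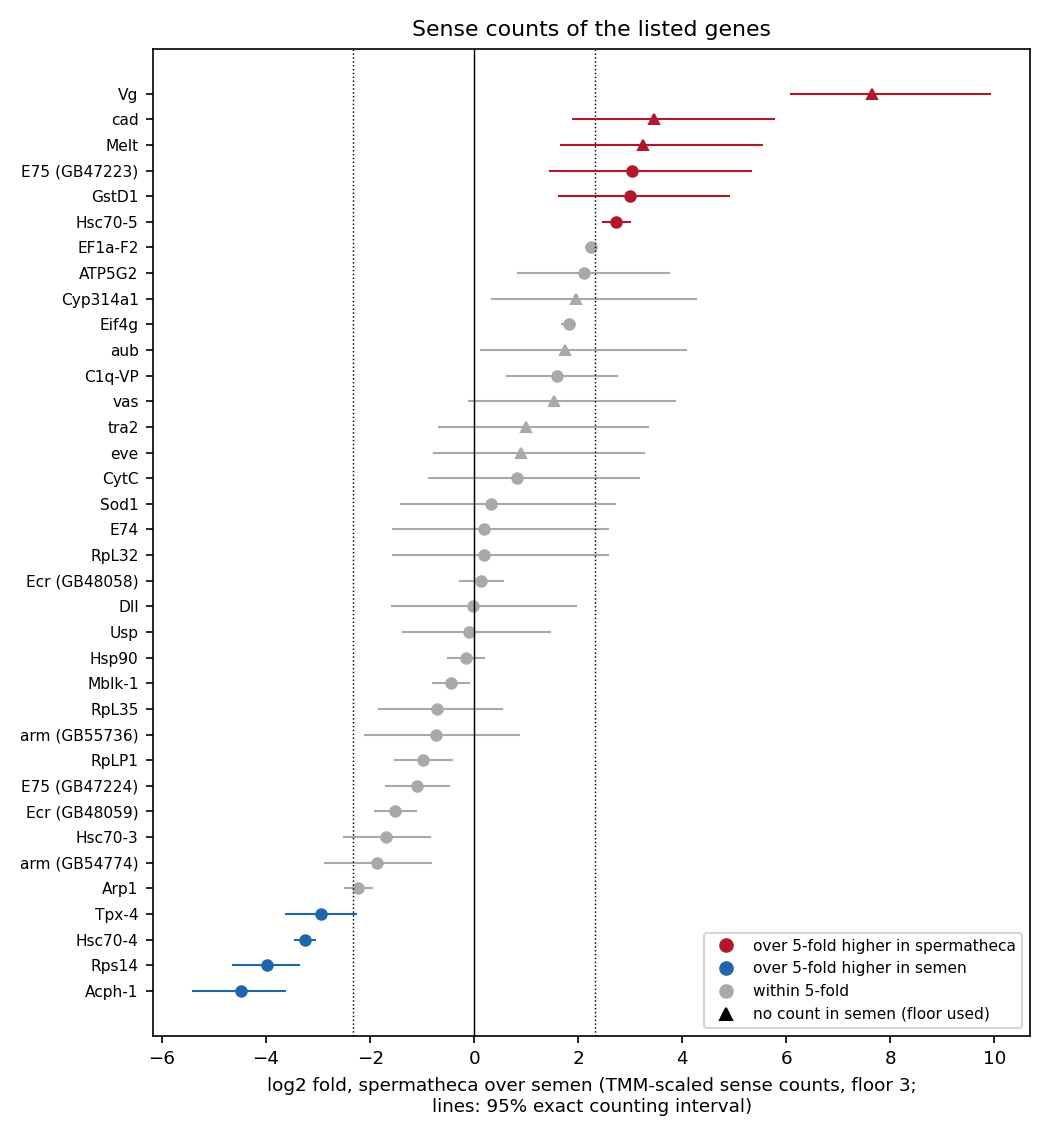
Log2 fold of scaled sense counts, spermatheca over semen, for the compared genes of the lists, with the 95% exact counting interval (a tissue under 3 counts set to 3; triangles have no semen count). Vg stands highest at 7.65 and Acph-1 lowest at -4.48; dotted lines mark 5-fold.

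Over all annotated TEs, 86.1% of counts in spermatheca and 68.0% in semen were in the sense direction, and over all gene models 60.9% in spermatheca and 78.3% in semen. The compared features were chosen by their sense counts, so that a high sense share among them is built in and is given as a description. Only compared features entered the next numbers, so that features with mainly antisense counts are largely left out. Of the compared TEs with at least 20 counts on both strands together, 398 of 549 in spermatheca and 55 of 80 in semen had at least 90% of them in sense. For the compared genes these were 1385 of 1812 in spermatheca and 373 of 425 in semen. Less than 50% in sense was found for 92 of these TEs in spermatheca and 23 in semen, and for 58 of these genes in spermatheca and 22 in semen.

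**Figure D5:**
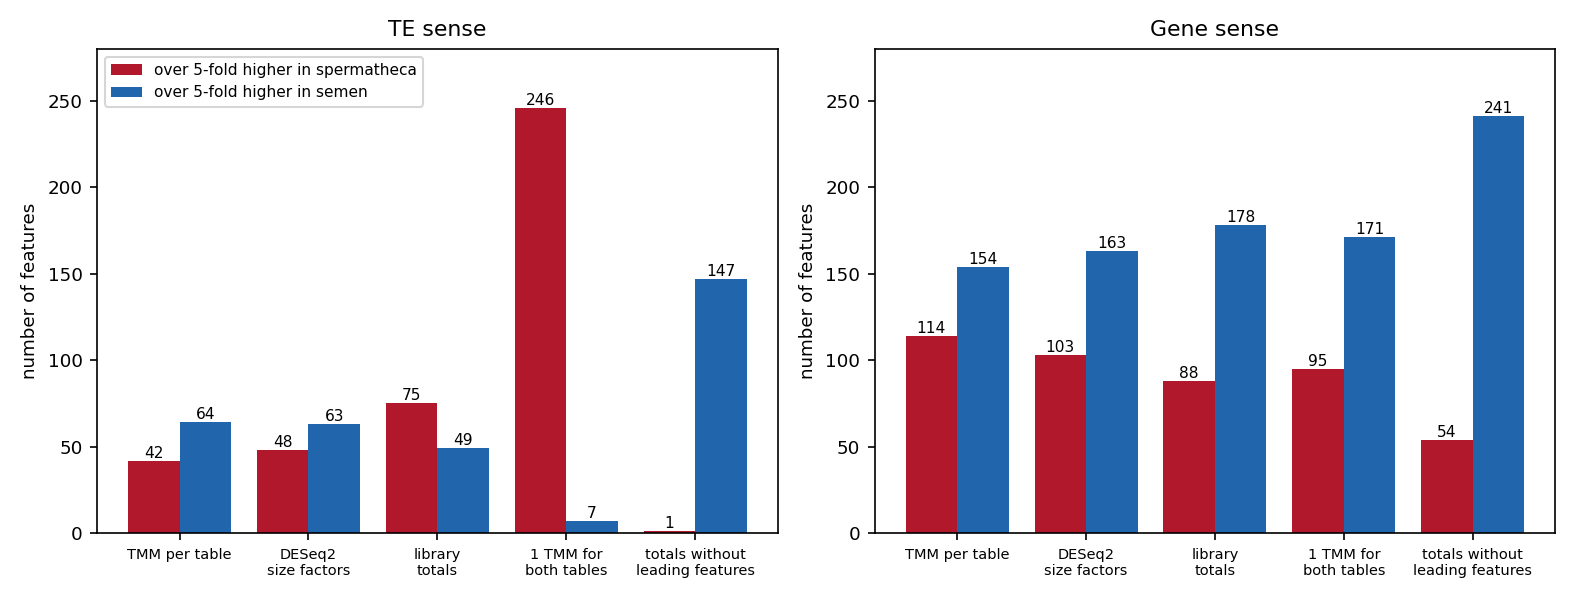
Number of TEs (left) and genes (right) called over 5-fold higher in spermatheca or in semen under 5 ways of scaling the tissues. For TEs the numbers range from 1 to 246 toward spermatheca and from 7 to 147 toward semen; for genes from 54 to 114 and from 154 to 241.

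The number of TE calls moved with the scaling far more than the number of gene calls, as the plot of calls by scaling shows. For genes, more calls were toward semen than toward spermatheca under each of the 5 scalings. Under other settings this order turned. Gene calls toward spermatheca and semen were 257 and 154 with a pseudocount of 1, and 434 and 378 at 2-fold. They were 53 and 43 at a minimum of 100 counts, 274 and 242 without a minimum, and 1212 and 52 without scaling. At a minimum of 5 counts the order was kept (179 and 315). For TEs the order turned, with more calls toward semen by TMM per table, by DESeq2 size factors and by totals without the leading features, and more toward spermatheca by totals of all features and by the common TMM factor.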

How the data were processed

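Small RNA libraries (Trizol, Illumina TruSeq Small RNA kit) were filtered by the authors for putative piRNAs of 26 to 31 nt, mapped to the Amel 4.5 assembly and counted over TEs and genes, introns and UTRs included, with featureCounts. The submitters' processing notes name Bowtie 1.2.3 and Rsubread 1.22.2. The deposited values are raw read counts per feature and strand in 4 tables, with 1 pooled column for each tissue and the feature length in bases. How libraries were combined and how reads with several matches were counted is not given in the sources used here. The 12 columns of other tissues were not used.

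Features with at least 20 sense counts in either tissue were scaled by TMM within each table (edgeR 4.0.16, R 4.3.3) and called when over 5-fold apart, with the lower tissue set to at least 3 counts. A single TMM factor over both tables is given beside it, and DESeq2 1.42.0 size factors were an alternative. Exact 95% intervals came from SciPy 1.17.1. With 1 column per tissue no test was run. The totals of assigned counts in the report set the precision of each value. Calling and scaling were tested on simulated data with 200 changed features in each table. Of the changed features that were compared, 89 of 158 TEs and 89 of 136 genes were recovered, and 0 unchanged features were called. Apart from the changed features, both simulated tissues had the same proportions. The simulation therefore could not show which scale is right for the real TE counts.

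Named were the 10 features with the most counts in each tissue, those holding at least 1% of a tissue, the 10 largest folds in each direction and the compared members of the lists; other features were named after their values were seen. The members and lists were chosen with earlier results of these data known. Symbols came from the RefSeq gene table of the Amel_HAv3.1 assembly, which matched 1776 of the 1884 genes and was used for names only. 1 listed gene is not reported here. The lists for glycolysis, histones, non-coding RNAs and sperm markers matched no symbol. Alternatives were other scalings, minimums of 1, 5 and 100 counts, a pseudocount of 1, a 2-fold limit, leaving out leading features or scaffolds, and a stricter overlap with clusters.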

Additional observations from a re-analysis of the deposited data

How the results depend on the processing

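No paired analysis was possible because the tables give 1 column for spermatheca and 1 for semen, so that no library could be left out either. TE calls toward spermatheca numbered 42, and were 75 with library totals, 246 with 1 TMM factor over both tables, 538 without scaling, 1 with totals without the leading features, 128 at a minimum of 5 counts, 7 at 100, 233 without a minimum and 103 at 2-fold. TE calls toward semen numbered 64, and under the same settings were 7 with the common factor, 3 without scaling, 147 without the leading features, 36 at 100 counts, 118 without a minimum and 105 at 2-fold. Gene calls toward spermatheca numbered 114, and were 1212 without scaling, 54 without the leading features, 179 at 5 counts, 53 at 100, 274 without a minimum, 257 with a pseudocount of 1 and 434 at 2-fold. Gene calls toward semen numbered 154, and were 52 without scaling, 241 without the leading features, 315 at 5 counts, 43 at 100, 242 without a minimum and 378 at 2-fold. They stayed at 154 with a pseudocount of 1. A change of minimum also changes which features are tested and the scale itself.

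Without ms35558 and ms43364 class I held 94.7% in spermatheca and 77.5% in semen, class II 4.95% and 13.0%, and no class 0.347% and 9.50%. Without the leading features of both tissues, the next TE held 15.1% in spermatheca and 9.33% in semen, and without the leading scaffold 17.8% and 10.2%. For genes these were 20.4% and 6.11%, and 21.1% and 6.08%. With at least 50% of the length in a cluster, TEs there held 98.4% of counts in spermatheca and 7.85% in semen, and genes 17.9% and 5.10%. Of 270 single-feature values 11 turned sign, 7 of them without scaling. Among features called over 5-fold these were R1B_DAn and 5S_DM, at log2 folds of 0.93 and 0.12 without scaling. Among features not called, 7 genes had a sign turn, the 4 with scaling being GB46019 (-0.16 without the leading features) and GB48058 (-0.20 with library totals, -0.11 with the common factor, -0.66 without the leading features). Since raw totals differ between the tissues, unscaled counts move every fold toward spermatheca. The cause of the other changes was not tested. The low semen totals limit what could be called, and for TEs this limit also depends strongly on the scale.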
